A study of Mus musculus with 12 samples.

Results

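Transcripts of 8 voltage-gated calcium channel subunits were followed in heart tissue of the inbred strain C57BL/6J, all animals wild type. The genes were taken by symbol from the count table of 55401 rows: the pore-forming subunits Cacna1c, Cacna1d, Cacna1s, Cacna1g and Cacna1h, and the auxiliary subunits Cacna2d1, Cacna2d2 and Cacnb2. All 8 had a row, and all 8 passed the filter on low counts that kept 16213 genes. Bulk RNA of hearts kept in RNAlater gave 12 libraries: 3 of trained and 3 of untrained females, and as many of males. Training, called exercise here, was treadmill running at 1 km/h, 45 min per session and 5 sessions weekly for 6 weeks. The sedentary groups were age-matched mice that stayed in cages. The labels name no drug or transgene in any of the 4 groups. The labels do not give the age itself or the part of the heart that was taken. The design sets exercised against sedentary hearts in each sex, and females against males.

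Voltage-gated calcium channels open when a muscle or nerve cell depolarises and let calcium in. In ventricular muscle the L-type channel built on Cacna1c carries the inward calcium current that triggers release from the sarcoplasmic reticulum, and a beta subunit (Cacnb2) and an alpha2delta subunit (Cacna2d1) help bring it to the membrane and shape its gating. Cacna1d, a second L-type pore, and the T-type pores Cacna1g and Cacna1h open at more negative voltages and are known from atrial muscle, the sinoatrial node and the conduction system. Cacna1s is the L-type pore of skeletal muscle.

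Total counts ran from 22204349 to 32566240 per library, and to at most 26607844 without the mitochondrial rows, which held counts in female sedentary 2 alone. Levels are given as CPM, the count of a gene scaled to a common library size. Ventricular muscle markers were high throughout, with Myl2 at 5457 to 6874 CPM. The atrial myosin light chain Myl7 was abundant in female exercised 2 (107 CPM) and in the sedentary females 1 (65.6 CPM) and 2 (22.99 CPM). No other library had more than 2.33 CPM. Comparisons of females with males are therefore also given without these 3 libraries, all of them female.

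Cacna1c and Cacna2d1 were the most abundant of the 8 transcripts and Cacna1d the least. Per length of exon, as CPM per kilobase (RPKM), Cacna1c stood at 12.3 ± 1.13 and Cacna2d1 at 11.1 ± 1.46 (SD over 12 libraries), with ranges that overlapped (10.6 to 14.6 and 8.99 to 13.4). Cacnb2 followed at 4.88 ± 0.464 RPKM. Cacna1s, the skeletal muscle pore, was next at 3.03 ± 0.532 RPKM, and its highest library (3.85) lay under the lowest of Cacnb2 (3.94). The T-type pores Cacna1g (1.44 ± 0.257 RPKM) and Cacna1h (0.959 ± 0.153 RPKM) came after it, with overlapping ranges. Cacna2d2 (0.264 ± 0.0918 RPKM) and Cacna1d (0.132 ± 0.0302 RPKM) were lowest and also overlapped. Of the summed RPKM of the 5 pores, Cacna1c made up 68.8%, Cacna1s 16.97%, Cacna1g 8.08%, Cacna1h 5.38% and Cacna1d 0.738%. The order was unchanged with the longest transcript as the length of each gene, which put Cacnb2 at 12.8 RPKM, the subunit whose level depended most on that choice.

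**Figure D1:**
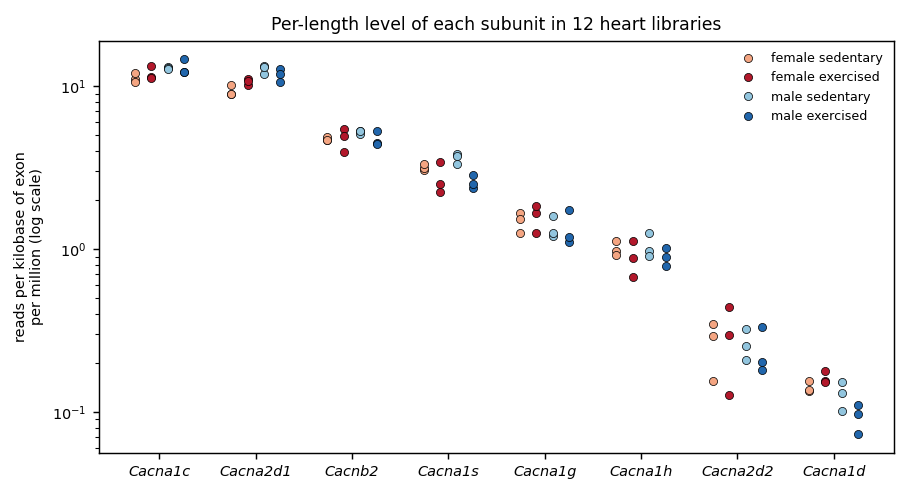
Per-length level (RPKM, log scale) of the 8 subunits in the 12 libraries, 1 point per library, coloured by group. Cacna1c and Cacna2d1 lie together at the top, between 8.99 and 14.6 RPKM, and Cacna1d lies lowest.

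Spread between libraries was small for the main ventricular subunits and large for the rare ones. The coefficient of variation of CPM over the 12 libraries was 9.21% for Cacna1c, 9.52% for Cacnb2 and 13.1% for Cacna2d1. It was 17.6% for Cacna1s, 17.8% for Cacna1g, 15.99% for Cacna1h, 22.98% for Cacna1d and 34.8% for Cacna2d2. Cacna1d rested on 23 to 56 reads per library and Cacna2d2 on 27 to 88, few enough that counting error adds to their spread, while Cacna1c rested on 5076 to 7390.

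**Figure D2:**
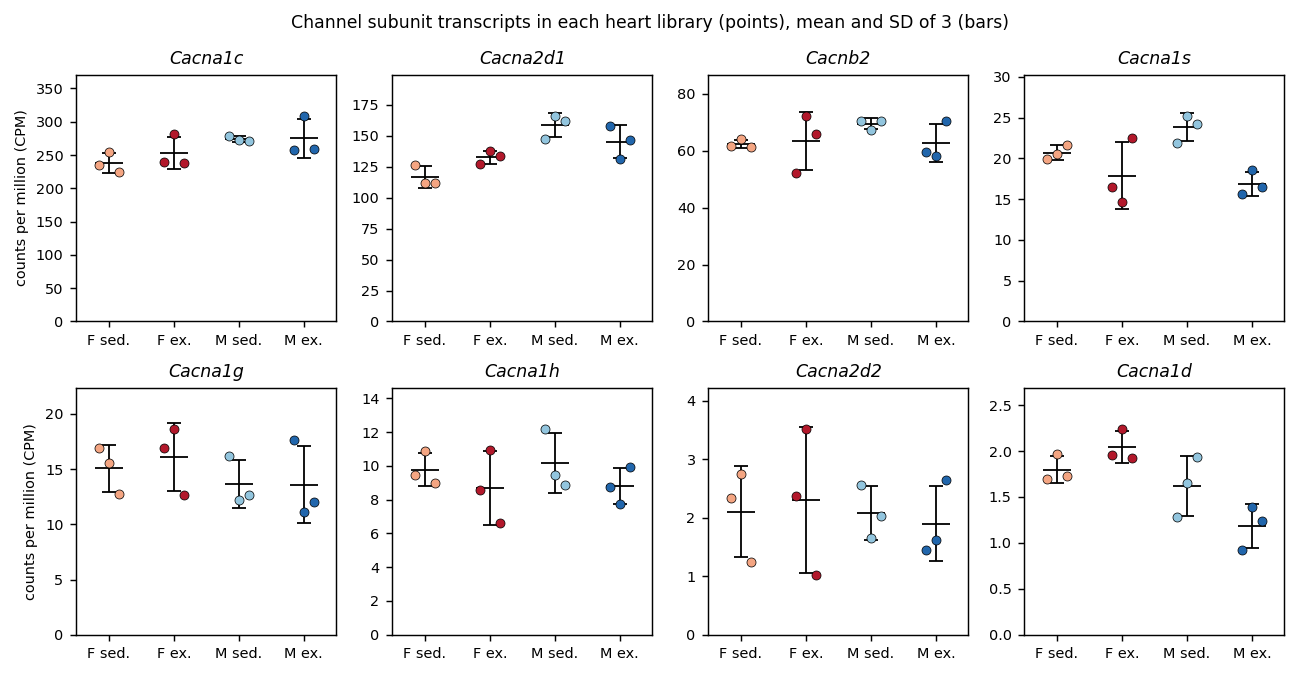
Level (CPM, axes from 0) of each subunit in sedentary (sed.) and exercised (ex.) females (F) and males (M), 3 libraries a group as points, with the mean and SD as black bars. Cacna2d1 is lowest in sedentary females and highest in sedentary males, and the 3 exercised male libraries of Cacna1s lie below the 3 sedentary male ones.

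Exercise changed no subunit past the test in either sex. The quasi-likelihood test of edgeR, adjusted by Benjamini-Hochberg over all genes tested, called 0 of the 8 in females (background 0% of 16213 genes) and 0 in males (background 0%), and limma's voom called 0 of them in either sex. DESeq2, which gave all 8 an adjusted p in females, called 0 there, and in males it gave one to 3 of the 8 (Cacna1c, Cacna2d1 and Cacnb2) and called 0. At an unadjusted p under 0.05 there was 1 subunit in females, Cacna2d1 (background 3.93%), and 1 in males, Cacna1s (background 7.84%). These were also the subunits whose exercised and sedentary libraries did not overlap, 1 of 8 in each sex, where 9.79% and 12.3% of all genes did not. In males 7 of 8 estimates lay below 0 (background 49.8%), with a median log2 fold change of -0.14, against 0.00068 over all genes. In females 2 of 8 lay below 0 (background 49.9%), with a median of 0.088 against 0.00028.

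**Figure D3:**
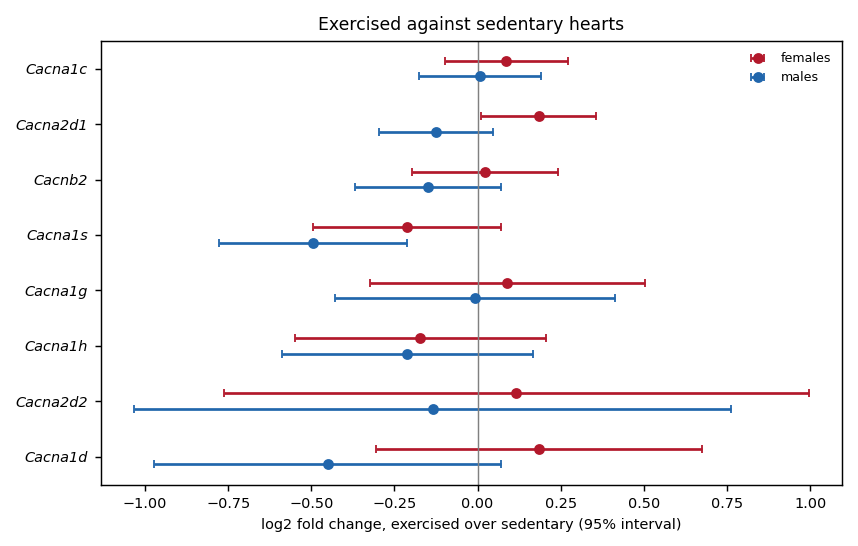
Log2 fold change of exercised over sedentary hearts for each subunit, females in red and males in blue, with 95% intervals from edgeR's fit. The interval excludes 0 for Cacna2d1 in females (0.012 to 0.36) and for Cacna1s in males (-0.78 to -0.21); neither passed after adjustment over all genes.

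Cacna1s had the lowest p of the 8 in males. This gene (chromosome 1, 136052750 to 136119822, plus strand; coordinates here are GRCm38) encodes the pore that acts as the voltage sensor of excitation-contraction coupling in skeletal muscle. It stood at 15.6, 18.5 and 16.5 CPM in exercised and 21.96, 25.2 and 24.3 CPM in sedentary males, so every exercised male lay below every sedentary one. The means were 16.9 ± 1.49 and 23.8 ± 1.69 CPM (SD, n = 3 each). The log2 fold change was -0.50 ± 0.13 (SE; edgeR adjusted p = 0.567, unadjusted p = 0.00212) and ran from -0.57 to -0.44 with 1 library left out. Smooth muscle genes had estimates of the same sign in males, with 5 of 6 below 0 (background 49.8%). Of these, 3 had an unadjusted p under 0.05 by edgeR (background 7.84%) and 0 were called. The summed level of the smooth muscle genes was 100.1 to 124 CPM in exercised and 140.3 to 163 CPM in sedentary males. Below 0 in males were also 12 of 14 calcium cycling, 6 of 8 conduction and 6 of 8 skeletal muscle genes. Of the endothelial and fibroblast genes 0 of 5 and 1 of 5 were. Pearson's r of Cacna1s with the mean log2 CPM of the smooth muscle genes was 0.0039 over the 12 libraries. It was -0.39 once group means were taken out. The part of any of these tissues in the estimate was not tested.

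In females Cacna1s was at 16.5, 14.6 and 22.5 CPM in exercised and 19.9, 20.6 and 21.7 CPM in sedentary hearts. Female exercised 1 and 2 were below all sedentary females and female exercised 3 was above them. The log2 fold change was -0.21 ± 0.13 (edgeR adjusted p = 1) and ranged from -0.42 to -0.088 with 1 library left out, nearest 0 without female exercised 2 and farthest without female exercised 3. Averaged over the sexes the log2 fold change was -0.35 ± 0.093 (edgeR adjusted p = 0.782, unadjusted p = 0.00192; 6.28% of all genes reached an unadjusted p under 0.05). The exercise effect of females minus that of males was 0.28 ± 0.19 (edgeR adjusted p = 0.93), and 0.080 without female exercised 3.

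The defining markers of skeletal muscle fibres were near 0 in all libraries. The fast skeletal myosin heavy chain genes Myh1, Myh2 and Myh4 had at most 3 reads in any library, and Myh4 was at 0 in 11 of 12. Of 12 skeletal muscle genes 8 passed the filter, and Tnni2 and Actn3 lay at 0.495 to 1.15 and 0.0450 to 0.707 CPM. Ryr1, on 3 to 33 reads per library, was at 0.118 to 0.339 CPM in females and 0.241 to 1.24 CPM in males. Of the 8, edgeR called 1 lower in females in sedentary hearts (background 1.36%) and 1 averaged over conditions (background 2.89%). The summed level of the 8 was 129 to 415 CPM in exercised males and 335 to 429 CPM in sedentary males. Acta1, which heart muscle also makes, ranged over 95.4 to 551 CPM and Mybpc2 over 19.7 to 49.7 CPM. An antisense gene covers 19.98% of the exon length of Cacna1s and had 10 reads over all libraries, against 5783 for Cacna1s. Since the strand setting of the counting is not known, reads of the pair cannot be told apart.

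The sequences before the starts of Cacna1s and Cacna2d1, the subunits of smallest p for exercise in males and for sex, are shown because they differ in kind. Both are from RefSeq's GRCm38.p6 table, plus strand, end before the annotated first exon and overlap no annotated exon. They cover chr1:136052561-136052749 for Cacna1s and chr5:15934441-15934690 for Cacna2d1. Capitals mark matches, on either strand, to any of these motifs, each of which was searched in both sequences. The E-box, a site of basic helix-loop-helix factors, was searched as CANNTG. The core of the box at which TATA-binding protein sits was searched as TATAA. The GC box of Sp factors was searched as GGGCGG. Half-sites of nuclear receptors were searched as AGGTCA, and AGAACA was the form searched for those of steroid receptors.
Cacna1s: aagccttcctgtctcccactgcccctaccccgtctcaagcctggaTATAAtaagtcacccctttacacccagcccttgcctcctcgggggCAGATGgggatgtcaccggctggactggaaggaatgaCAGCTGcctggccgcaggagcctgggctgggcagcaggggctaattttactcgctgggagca
Cacna2d1: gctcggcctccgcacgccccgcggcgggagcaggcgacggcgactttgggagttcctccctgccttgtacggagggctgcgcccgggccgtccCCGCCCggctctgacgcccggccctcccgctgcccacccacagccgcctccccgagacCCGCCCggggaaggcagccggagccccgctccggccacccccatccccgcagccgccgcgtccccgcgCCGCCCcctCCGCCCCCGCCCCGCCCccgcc
The Cacna1s stretch of 189 bases held 1 match to the TATA core and 2 E-boxes, 1 of them CAGCTG, the form bound by myogenic factors. This stretch ended 61 bases short of the RefSeq start, and the TATA match lay ahead of both E-boxes, toward its far end. Whether the match serves as the TATA box of the gene was not tested. In the same window 17.1% of the 32851 promoters of the table hold the TATA core, 57.1% an E-box and 9.77% this form of it. The 250 bases before Cacna2d1 held 6 GC boxes, some of them overlapping, which 32.7% of promoters hold at least once, and none of the other motifs. Neither stretch held a receptor half-site; 14% and 16.1% of promoters hold the nuclear and the steroid receptor form over 250 bases. Of the 8 subunits 6 have an entry in the table.

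Among the other pores, Cacna1c (chromosome 6, 118587240 to 119196418, minus strand) overlapped between exercised and sedentary hearts in both sexes. It was at 239.9, 281 and 238 CPM in exercised and 235, 255 and 224 CPM in sedentary females, and at 257, 309 and 259 CPM in exercised and 279, 273 and 271 CPM in sedentary males. Female exercised 2 and male exercised 2 were the highest of their groups. The log2 fold change for exercise was 0.087 ± 0.086 in females, with a 95% interval of -0.097 to 0.27, and 0.0063 ± 0.086 in males, with -0.18 to 0.19.

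Cacna1d (chromosome 14, 30039939 to 30491455, minus strand), the L-type pore of pacemaker and atrial cells, was rare. It stood at 1.96, 2.24 and 1.92 CPM in exercised and 1.70, 1.96 and 1.72 CPM in sedentary females. In males it was at 0.924, 1.40 and 1.24 CPM in exercised and 1.28, 1.65 and 1.94 CPM in sedentary hearts. The groups overlapped in both sexes, with estimates on opposite sides of 0: 0.18 ± 0.23 in females and -0.45 ± 0.24 in males (edgeR adjusted p = 0.655). The difference between these effects was 0.64 ± 0.33 (edgeR adjusted p = 0.93, unadjusted p = 0.0775), with a 95% interval of -0.080 to 1.35. Cacna1d shares 589 exonic bases with Chdh on the opposite strand, which had 51 reads over all libraries against 485 for Cacna1d.

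The T-type pores Cacna1g (chromosome 11, 94408391 to 94474198, minus strand) and Cacna1h (chromosome 17, 25374285 to 25433783, minus strand) carry a low-voltage calcium current. Cacna1g was at 16.9, 18.6 and 12.7 CPM in exercised and 16.9, 15.6 and 12.8 CPM in sedentary females, and at 17.6, 11.2 and 12.01 and 16.2, 12.2 and 12.7 CPM in the corresponding males. Its log2 fold change was 0.090 ± 0.19 in females and -0.0075 ± 0.19 in males, on either side of 0 depending on the library left out (-0.032 to 0.23 and -0.24 to 0.13). Every group held both high and low libraries. Cacna1h was at 8.58, 10.9 and 6.59 CPM in exercised and 9.46, 10.9 and 9.02 CPM in sedentary females, and at 8.76, 7.74 and 9.92 and 12.2, 9.47 and 8.88 CPM in males, with estimates of -0.17 ± 0.18 and -0.21 ± 0.18 and overlapping groups. Their 95% intervals of -0.55 to 0.20 and -0.59 to 0.17 include 0. Left out 1 library at a time, the female estimate ran from -0.37 to -0.0079 and the male from -0.31 to -0.059.

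Of the auxiliary subunits, Cacna2d1 (chromosome 5, 15934691 to 16374511, plus strand), which raises the surface density of the channel, had the lowest p for exercise in females. It was at 127, 137 and 134 CPM in exercised and 127, 112 and 112 CPM in sedentary females. The groups did not overlap, but female exercised 1 and female sedentary 1 were nearly level. The log2 fold change was 0.18 ± 0.080 (edgeR adjusted p = 1, unadjusted p = 0.0381). In males it was at 158, 132 and 147 CPM in exercised and 147, 166 and 162 CPM in sedentary hearts, with an estimate of -0.13 ± 0.080 that ran from -0.19 to -0.059 with 1 library left out, nearest 0 without male exercised 2. The exercise effect of females minus that of males was 0.31 ± 0.11 (edgeR adjusted p = 0.93, unadjusted p = 0.0165; 4.74% of all genes had an unadjusted p under 0.05). No subunit passed for this difference (0 of 8, background 0%, and 1 at an unadjusted p under 0.05; voom called 0), nor for exercise averaged over the sexes (0 of 8, background 0%, with 1 at an unadjusted p under 0.05 and 0 by voom). DESeq2 gave an adjusted p to 3 of the 8 in each of these comparisons and called 0 of those.

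Cacnb2 (chromosome 2, 14603088 to 14987908, plus strand), the main beta subunit of the heart, was at 52.2, 72.3 and 65.8 CPM in exercised and 61.8, 64.1 and 61.5 CPM in sedentary females. Exercised females spread over the widest range of the 4 groups, around the narrow sedentary one. In males it was at 59.6, 58.01 and 70.4 CPM in exercised and 70.5, 67.4 and 70.6 CPM in sedentary hearts, and the estimates were 0.023 ± 0.10 in females and -0.15 ± 0.10 in males. The male estimate ran from -0.24 to -0.097 with 1 library left out. Cacna2d2 (chromosome 9, 107399612 to 107529343, plus strand), an alpha2delta subunit best known from brain, was at 2.37, 3.52 and 1.02 CPM in exercised and 2.34, 2.75 and 1.24 CPM in sedentary females, and at 1.45, 1.62 and 2.64 and 2.57, 1.65 and 2.03 CPM in males. Its estimates of 0.12 ± 0.41 and -0.13 ± 0.42 turned with single libraries (-0.33 to 0.48 in females and -0.45 to 0.050 in males), and their 95% intervals were as wide as -0.76 to 1.00 and -1.03 to 0.76.

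Between the sexes, Cacna2d1 was lower in female hearts, and it was the only one of the 8 subunits past the test. In sedentary hearts the mean was 117 ± 8.54 CPM in females and 158 ± 9.86 CPM in males (SD, n = 3 each), and every female library lay below every male one. The log2 fold change was -0.44 ± 0.081 (edgeR adjusted p = 0.0142). It was the 1 of 8 called there, where 2.21% of all genes were called and 1.36% were called lower in females; at an unadjusted p under 0.05 there were 2 of 8 (background 18.4%). In exercised hearts the means were 133 ± 5.32 and 145 ± 13.1 CPM, the groups overlapped, and the log2 fold change was -0.13 ± 0.080 (edgeR adjusted p = 0.635). Averaged over both conditions Cacna2d1 was lower in females, with a log2 fold change of -0.29 ± 0.057 (edgeR adjusted p = 0.0125). Again it was the 1 of 8 called (background 5.05%, 2.89% lower in females), with 3 of 8 at an unadjusted p under 0.05 (background 21.2%). The difference between the sedentary and exercised comparisons is the same test as the difference between the exercise effects, given above, and did not pass.

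Without the 3 female libraries rich in atrial transcripts, which leaves 1 sedentary female whose spread is taken to be that of the other groups, the log2 fold change of Cacna2d1 was -0.50 in sedentary hearts (adjusted p = 0.172 by edgeR) and -0.33 averaged over conditions (adjusted p = 0.0741 by edgeR), larger in size but no longer past the threshold. With 1 library left out at a time the averaged call held in 12 of 12 fits, and the sedentary call in 9. It was lost without female sedentary 2 (adjusted p = 0.0651 by edgeR), female sedentary 3 (adjusted p = 0.0545) or male sedentary 3 (adjusted p = 0.0684). In bulk tissue, fewer muscle cells and less RNA of the gene per cell cannot be told apart. Averaged over conditions, the 7 ventricular muscle genes had a median log2 fold change of females over males of -0.064, against 0.012 over all genes. Of the 7, 7 lay below 0 (background 47.2%), 3 had an unadjusted p under 0.05 by edgeR (background 21.2%) and 0 were called (background 5.05%).

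Some markers of other cells also had higher levels in female libraries. Red cell genes, the globins and Alas2, had a median log2 fold change of 5.89 in sedentary females over males. Of these, 5 of 5 lay above 0, where 47.6% of all genes lay below 0. By edgeR 5 had an unadjusted p under 0.05 (background 18.4%) and 0 were called (background 2.21%). Their summed level was 34.6 to 3629.6 CPM in sedentary and 17.8 to 293 CPM in exercised females, against 8.26 to 43.6 and 12.6 to 86.2 CPM in males. Most of this lay in the 3 atrial-rich libraries; the other females had at most 36.5 CPM. Adipocyte genes (3 of 4 past the filter) summed to 0.707 to 11.1 and 0.490 to 85.7 CPM in sedentary and exercised females, and to 0.377 to 0.508 and 0.383 to 2.13 CPM in males. The part of these cells in the sex difference of Cacna2d1 was not tested; its estimate without the atrial-rich libraries is given above.

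**Figure D4:**
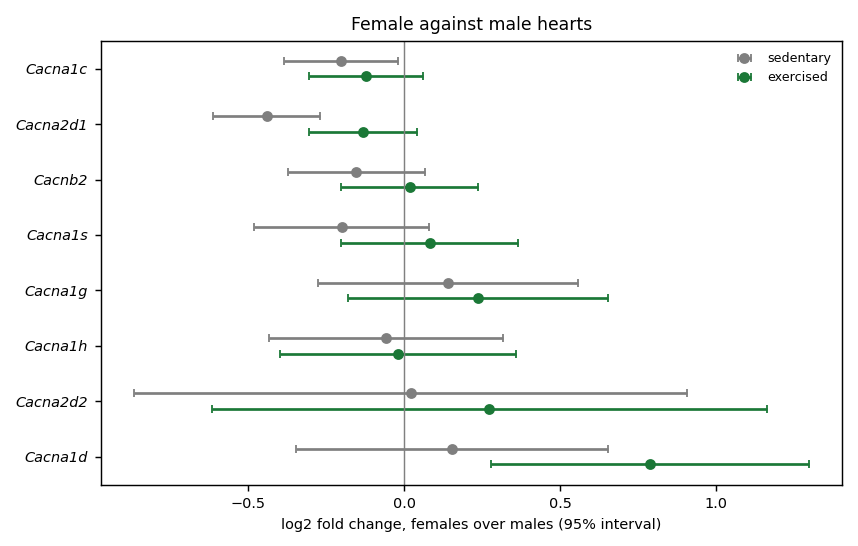
Log2 fold change of female over male hearts for each subunit, sedentary in grey and exercised in green, with 95% intervals from edgeR's fit. Cacna2d1 in sedentary hearts (-0.61 to -0.27) lies to the left of 0 and passed after adjustment; Cacna1d in exercised hearts (0.28 to 1.30) lies to the right and did not.

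Cacna1c, Cacnb2, Cacna1s and Cacna1h (-0.059 ± 0.18) lay on the same side of 0 as Cacna2d1 in sedentary hearts without passing. In all, 5 of 8 estimates were below 0 there (background 47.6%). Cacna1c was at 238 ± 15.5 CPM in females and 274 ± 4.17 CPM in males, with no overlap and a log2 fold change of -0.20 ± 0.086 (edgeR adjusted p = 0.226). Cacnb2 and Cacna1s also did not overlap between the sexes in sedentary hearts, at -0.15 ± 0.10 and -0.20 ± 0.13. In all, 4 of 8 subunits did not overlap there, where 25% of all genes did not. In exercised hearts Cacna1c was at -0.12 ± 0.086, nearest 0 (-0.031) without male exercised 2. Averaged over conditions Cacna1c was at -0.16 ± 0.061 (edgeR adjusted p = 0.139, unadjusted p = 0.0177), and at -0.25 without the atrial-rich libraries.

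Cacna1d lay on the other side of 0 in both conditions (1.79 ± 0.148 CPM in sedentary females and 1.62 ± 0.328 CPM in sedentary males, which overlapped). In exercised hearts it was at 2.04 ± 0.175 CPM in females and 1.18 ± 0.239 CPM in males, and every exercised female library was above every exercised male one. The log2 fold change was 0.79 ± 0.24 (edgeR adjusted p = 0.264; 0 of 8 called, background 0.16%; 1 of 8 without overlap, background 14.3%). At an unadjusted p under 0.05 it was the 1 subunit of 8 (background 9.84%), and DESeq2 and voom called 0. Averaged over conditions it was 0.47 ± 0.17 (edgeR adjusted p = 0.122), and 0.40 without the atrial-rich libraries. Female exercised 2, the library with most Myl7, had the highest Cacna1d of all. Between Cacna1d and the mean log2 CPM of the atrial genes, Pearson's r over the 12 libraries was 0.53 (Spearman's rho 0.65). It was 0.21 once group means were taken out. In exercised hearts smooth muscle genes had estimates of the same sign, with a median of 0.74 and 5 of 6 above 0, where 49.2% of all genes lay below 0. Of the 6, 4 had an unadjusted p under 0.05 by edgeR (background 9.84%) and 0 were called. Their summed levels were 180.3 to 253 CPM in exercised females, against 100.1 to 124 CPM in exercised males. Above 0 there were also 3 of 3 atrial, 3 of 3 adipocyte, 5 of 5 red cell, 5 of 5 fibroblast and 7 of 8 conduction genes. Of the ventricular and endothelial genes 1 of 7 and 1 of 5 were. Pearson's r of Cacna1d with the mean log2 CPM of the smooth muscle genes was 0.56 over the 12 libraries. It was -0.35 once group means were taken out. The part of smooth muscle, atrial muscle or any other of these tissues in the values of Cacna1d was not tested.

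None of the remaining subunits passed for sex. Averaged over conditions the log2 fold change of females over males was 0.19 ± 0.14 for Cacna1g, -0.040 ± 0.12 for Cacna1h, -0.060 ± 0.093 for Cacna1s, 0.15 ± 0.29 for Cacna2d2 and -0.068 ± 0.073 for Cacnb2. Those of Cacna1g and Cacna2d2 stood at -0.048 and -0.58 once the mean of the atrial genes was a covariate, and Cacna1s at 0.10, so that these 3 changed side.

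Cacna1g fell into a high and a low set of libraries that cut across sex and exercise. It was at 16.9, 18.6, 16.9, 15.6, 17.6 and 16.2 CPM in female exercised 1 and 2, female sedentary 1 and 2, male exercised 1 and male sedentary 1. In the other 6 libraries (female exercised 3, female sedentary 3, male exercised 2 and 3, male sedentary 2 and 3) it was at 12.7, 12.8, 11.2, 12.01, 12.2 and 12.7 CPM. No library lay between 12.8 and 15.6 CPM. The mean over genes of the conduction tissue divided the libraries in the same way, although none of these genes did so alone. Over the 8 of 10 listed genes that passed the filter, the mean log2 CPM was 2.004 to 2.62 in the first 6 libraries and 1.30 to 1.73 in the others. Of the 2 genes left out by the filter, Isl1 was at 0 in 11 libraries and Vsnl1 had at most 14 reads.

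The ranges of the 2 sets overlapped for each of the 8 conduction genes. Cntn2, an adhesion protein of Purkinje fibres, was at 9.49, 6.80, 2.19, 5.82, 4.74 and 5.28 CPM in the 6 libraries high in Cacna1g, and at 0.486 to 3.68 CPM in the others. Hcn4, the pacemaker channel, was at 4.33 to 10.4 against 3.36 to 6.30 CPM in the high and low sets, with female sedentary 1 and 2 of the high set (4.33 and 5.07 CPM) below male exercised 2 (6.30 CPM) of the low set. It was highest in male exercised 1 (10.4 CPM) and male sedentary 1 (9.39 CPM), which were also the highest males for Cacna1g and were poor in atrial transcripts (Myl7 0.522 and 0.415 CPM). Tbx3 and Shox2, transcription factors of the node, did not follow the sets (12.3 to 22.1 against 12.6 to 20.3 CPM and 0.416 to 2.04 against 0.425 to 1.01 CPM), and Tbx18 did in part (3.91 to 5.31 against 2.84 to 4.06 CPM). Smoc2 was at 111 CPM or more in females and at most 92.2 CPM in males. The means of the neuron genes were at 1.71 to 1.87 in the high and 1.51 to 1.91 mean log2 CPM in the low set. Those of the adipocyte genes were at -2.47 to 4.13 and -2.47 to -2.05, and at -0.757 or more in the high set without male sedentary 1. The atrial means were at -1.38 to 6.32 against -1.29 to -0.337. Over the 12 libraries Pearson's r with Cacna1g was 0.76 for the adipocyte, 0.67 for the neuron and 0.64 for the atrial mean. Between Cacna1g and the conduction mean, r over the 12 libraries was 0.87 (Spearman's rho 0.69), and 0.86 once group means were taken out. It was 0.53 (rho -0.14) within the 6 high libraries and -0.23 (rho -0.37) within the 6 low ones. The sets were cut at the gap in Cacna1g itself, which narrows its range within each. The coefficients within sets therefore cannot show whether more than the division is shared. These coefficients are descriptions over libraries that share tissue make-up, chosen from 104 pairs of a subunit and a marker list. The part of conduction tissue, atrial muscle, nerve or fat in the levels of Cacna1g was not tested.

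**Figure D5:**
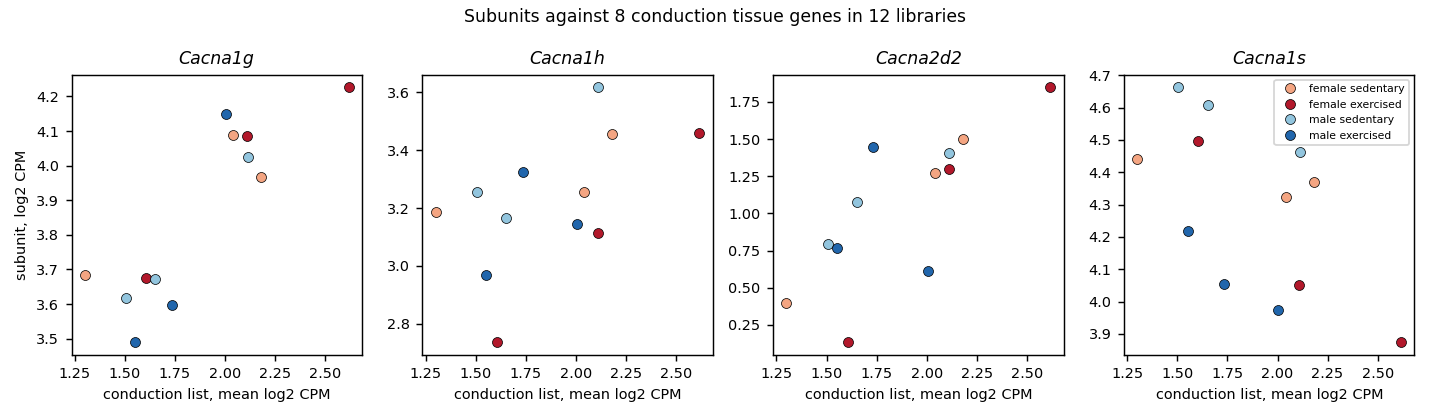
Level of 4 subunits (log2 CPM) against the mean log2 CPM of 8 conduction tissue genes in the 12 libraries, coloured by group. For Cacna1g 6 libraries lie above and 6 below a gap, and each group has points on both sides.

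Cacna2d2, Cacna1h and Cacna1s showed no such gap. Cacna2d2 was at 1.45 to 3.52 CPM in the 6 libraries of higher conduction mean and 1.02 to 2.64 CPM in the others, on 27 to 88 reads per library. Its r with the conduction mean within each set was 0.79 and 0.61 (rho 1.0 and 0.6, n = 6 each). For Cacnb2 these were 0.59 and 0.61 (rho 0.77 and 0.66), although its r over the 12 libraries was 0.11. Coefficients of this size within sets of 6 therefore do not set Cacna2d2 apart. Cacna1h was at 8.58 to 12.2 and 6.59 to 9.92 CPM, and the r between Cacna1h and Cacna2d2 over the 12 libraries was 0.78, the highest of the 28 pairs of subunits. Cacna1s ran the other way, at 14.6 to 21.96 CPM where the conduction mean was high and 16.5 to 25.2 CPM where it was low. With the conduction mean as a covariate the exercise effect on Cacna1s was -0.49 ± 0.096 in males (edgeR adjusted p = 0.532) and -0.13 ± 0.098 in females.

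Of 18 other subunit genes of the family, 7 passed the filter, and none passed the test for exercise or sex (0 of 7 in each by edgeR and voom). Over all genes edgeR called 0% for exercise in either sex. For sex it called 2.21% in sedentary hearts, 0.16% in exercised hearts and 5.05% averaged over conditions. At such shares 0 of 7 does not set these subunits apart from other genes. DESeq2 called 0, but gave none of the 7 an adjusted p for exercise in males. At an unadjusted p under 0.05 by edgeR there were 0 for exercise in either sex (background 3.93% in females and 7.84% in males). For sex averaged over conditions there were 2, 1 higher and 1 lower in females (background 21.2%). The beta subunits Cacnb1, Cacnb3 and Cacnb4 ranged over 4.98 to 8.25, 2.22 to 4.42 and 0.924 to 2.30 CPM. Cacnb1, the beta subunit of the skeletal muscle channel, was below every sedentary female in all exercised females (-0.32 ± 0.17, edgeR adjusted p = 1). There 9.79% of all genes did not overlap. In males Cacnb1 was at -0.049 ± 0.17. Cacnb4 was at 0.35 ± 0.26 in females and, without overlap (background 12.3%), at -0.54 ± 0.27 in males (edgeR adjusted p = 0.638). Cacnb3 was at -0.19 ± 0.20 and 0.21 ± 0.21. Cacna1a, the P/Q-type pore of nerve terminals, ranged over 2.22 to 4.86 CPM, with 0.24 ± 0.24 in females and 0.16 ± 0.24 in males. Cacna2d3, at 0.354 to 1.21 CPM, was at 0.75 ± 0.41 and -0.22 ± 0.42. The gamma subunits Cacng6 and Cacng7, at 1.04 to 3.94 and 3.78 to 6.21 CPM, had estimates for sex of -0.62 ± 0.28 and 0.23 ± 0.11 (edgeR adjusted p = 0.213 and 0.23), the first lower and the second higher in the estimates for females. The 11 others had between 2 and 57 reads over all 12 libraries.

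Among partners of the channel at the junction with the sarcoplasmic reticulum and in calcium cycling, 5 of 14 were lower in females averaged over conditions and 0 were higher. Over the 14, 13 lay below 0, with a median log2 fold change of -0.12 against 0.012 over all genes. Over all genes 2.89% were called lower in females and 47.2% lay below 0. These were Casq2, the calcium store of the reticulum (-0.24 ± 0.042, edgeR adjusted p = 0.00672), Slc8a1, the sodium-calcium exchanger (-0.29 ± 0.055), Trdn, triadin (-0.29 ± 0.060), Hrc, a calcium buffer (-0.21 ± 0.050), and Ryr2, the release channel (-0.31 ± 0.071), the last named after its value was seen. Of 23 regulators of the channel 2 passed, lower in females: Camk2g, a calmodulin kinase subunit (-0.23 ± 0.046), and Prkar2a, a regulatory subunit of protein kinase A (-0.20 ± 0.050). Ppp3cb, a calcineurin subunit, was at -0.15 ± 0.045 (edgeR adjusted p = 0.0642). In sedentary hearts alone 4 partners and 1 regulator passed, all lower in females (background 1.36%). Without the 3 atrial-rich libraries 1 sedentary female is left, too few for a count of calls. The part of tissue make-up in these differences was not tested. Leaving out female exercised 1 or male sedentary 3 left 3 partners called, and 8 of the 12 libraries, each left out, took 1 of the regulators away. Calls over all genes for sex averaged over conditions also moved, from 818 with all 12 libraries to between 421 and 837. They were fewest without female exercised 1.

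For exercise no partner or regulator passed in either sex (0 of 14 and 0 of 23 by edgeR; at an unadjusted p under 0.05, 0 and 1 in females, background 3.93%, and 3 and 0 in males, background 7.84%). Of the partners 12 of 14 lay below 0 in males (background 49.8%), with a median of -0.13, and 5 of 14 in females (background 49.9%), with a median of 0.031. The female effect minus the male one lay below 0 in 3 of 14 (background 50.6%); 0 passed, and 3 had an unadjusted p under 0.05 (background 4.74%). Those of smallest p in males were Hrc (-0.27 ± 0.070), Casq2 (-0.15 ± 0.059) and Asph, whose products include junctin (-0.16 ± 0.071). For each of these 3 the exercised and sedentary males did not overlap (background 12.3%). Those of another partner, Atp2b1, did not either (58.9 to 66.2 against 67.4 to 71.1 CPM). The 3 were picked by p, which makes a lack of overlap likely, so it is no further support. In females those of smallest p were Atp2a2, the calcium pump (0.14 ± 0.067), Itpr2, an inositol trisphosphate receptor (-0.14 ± 0.11) and Trdn (0.11 ± 0.084). Of these only Atp2a2 did not overlap (background 9.79%). They were picked by p as well, and so were the regulators named next. Among the regulators Ppp3cb was at 0.21 ± 0.064 in females, also without overlap (edgeR adjusted p = 1), with Bin1, a membrane-bending protein of T-tubules, at -0.15 ± 0.12. In males Adrb1, the main beta-adrenergic receptor of the heart, was at 0.56 ± 0.28, Rrad, a small GTPase that restrains the L-type channel, at 0.49 ± 0.28, and Camk2g at -0.098 ± 0.065.

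The transcripts whose log2 CPM followed each subunit most closely over the 12 libraries differed from subunit to subunit. The 2 protein-coding genes of highest Pearson's r were Ube3b (r = 0.95) and Add1 (r = 0.93) for Cacna1c, and Maob (r = 0.96) and Fbxl5 (r = 0.95) for Cacna2d1. They were Zfp39 (r = 0.87) and Epm2aip1 (r = 0.86) for Cacnb2, Scube2 (r = 0.89) and Ccdc93 (r = 0.88) for Cacna1s, and D430042O09Rik (r = 0.91) and Eefsec (r = 0.89) for Cacna1g. For Cacna1h they were Sall2 (r = 0.84) and Arid3a (r = 0.82), for Cacna2d2 Gucd1 (r = 0.89) and Eps8l2 (r = 0.85), and for Cacna1d Cyp8b1 (r = 0.91) and Spata2l (r = 0.88). Each was picked as the highest of all protein-coding genes tested, over libraries that share depth and tissue make-up, and no subunit was among them. Between subunits r ran from -0.52 (Cacna1g and Cacna1s) to 0.78, and that of Cacna1c with its partners Cacna2d1 and Cacnb2 was 0.48 and 0.30.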

How the data were processed

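Counts of reads per gene were deposited by the authors for each library, with no normalization. Trimmomatic 0.36 (trimming), STAR 2.5.2b (alignment), featureCounts in Subread 1.5.2 (counting) and the build GRCm38 are named per the submitters' processing notes; which annotation release was used, and whether strand was, is not given in the sources used here. Symbols, positions and exon lengths came from a GRCm38 annotation joined on gene identifier without version (55141 of 55401 rows).

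The fit used edgeR 4.0.16 (R 4.3.3): filterByExpr kept 16213 genes, libraries were scaled by trimmed mean of M-values, and 1 model of the group means over 12 libraries (8 residual degrees of freedom) gave quasi-likelihood tests of 7 contrasts, adjusted by Benjamini-Hochberg over all genes with a threshold of 0.05. CPM and RPKM use the scaled library sizes, log2 CPM a prior count of 2. The 37 mitochondrial rows did not pass the filter. Libraries of 1 group differed by more than sampling noise (chi-square per degree of freedom at least 9.33). The labels do not say that each library is a separate animal, and p-values reflect library-to-library spread only. Alternatives were other scalings, filters and sets of samples, DESeq2 1.42.0, voom of limma 3.58.1, a covariate from the atrial genes, and each library left out; a covariate from the conduction genes was added after the data were seen. On simulated counts for exercise in females, the fit called 29 of 50 genes changed 2-fold and 16 of 50 changed 1.5-fold, of 16043 genes tested.

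Named were all 8 subunits, the 7 other subunits past the filter, the 3 genes of smallest p of the partner and regulator lists in 3 contrasts, and the 2 closest genes of each subunit; 1 gene that this rule names is not reported here. Members and lists were chosen with earlier results of these data known.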

Additional observations from a re-analysis of the deposited data

How the results depend on the processing

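No paired analysis was possible because the labels give no replicate numbers that groups share. The count of called subunits was 0 for each exercise comparison, for the difference between the sexes and for sex in exercised hearts under every alternative run, although DESeq2 gave 5 of the 8 no adjusted p for exercise in males, its average and the difference. Without the 3 atrial-rich libraries it went from 1 to 0 for sex in sedentary hearts and to 0 for sex averaged over conditions; in sedentary hearts it ran from 0 to 1 with 1 library left out. The cause was not tested; fewer samples are left in these fits. Of 35 log2 fold changes of subunits, 9 took both signs when 1 library was left out: for exercise in females Cacna1g (-0.032 to 0.23), Cacna2d2 (-0.33 to 0.48) and Cacnb2 (-0.083 to 0.14), in males Cacna1c (-0.085 to 0.051), Cacna1g (-0.24 to 0.13) and Cacna2d2 (-0.45 to 0.050), and for sex averaged over conditions Cacna1h (-0.14 to 0.045), Cacna1s (-0.16 to 0.0063) and Cacna2d2 (-0.074 to 0.33). None of these had passed. With voom, Cacnb2 in exercised females was at -0.023, and Cacna1c and Cacna1g in exercised males at -0.032 and 0.015; upper quartile scaling put Cacna1c there at -0.0040. Without the atrial-rich libraries Cacnb2 in females was at -0.057, and for sex averaged over conditions Cacna1s at 0.034 and Cacna2d2 at -0.47. The atrial covariate gave -0.048, 0.10 and -0.58 for Cacna1g, Cacna1s and Cacna2d2 by sex. The conduction covariate gave -0.079, -0.27 and -0.0019 for exercise in females in Cacna1g, Cacna2d2 and Cacnb2, and 0.017 and -0.23 by sex in Cacna1s and Cacna2d2. Over all genes, calls for sex in sedentary hearts went from 358 to 866 with DESeq2, 91 with the atrial covariate, 14 without the atrial-rich libraries and 68 to 462 with 1 library left out. Averaged over conditions they went from 818 to 1371, 191, 119 and 421 to 837. In exercised hearts they went from 26 to 167 with DESeq2, 43 without a filter, 15 with these groups alone and 17 to 55 with 1 left out. For exercise, where edgeR called 0, DESeq2 called 1 gene in females, 25 in males, 14 for the average and 10 for the difference. With few reads, Cacna1d and Cacna2d2 limit what a difference of under 1.5-fold could show.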

Other observations

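Ratios of per-length levels within a library show how the make-up of the channel genes varied apart from the scaling. Per Cacna1c, Cacna1s was at 0.199 ± 0.00630 in exercised and 0.281 ± 0.0236 in sedentary males (SD, n = 3 each), and at 0.232 ± 0.0695 and 0.283 ± 0.0265 in the females. The male ratios ran from 0.194 to 0.206 and from 0.255 to 0.300. Cacna1d per Cacna1c was at 0.0135 ± 0.000153 and 0.0127 ± 0.000470 in exercised and sedentary females, against 0.00720 ± 0.00103 and 0.00996 ± 0.00215 in males. Cacna1d rested on 47, 56 and 51 reads in the exercised females. The SD of their ratio is smaller than counting error alone would give, so it is no measure of how closely the ratio is held. Cacnb2 and Cacna2d1 per Cacna1c were at 0.399 ± 0.0415 and 0.909 ± 0.105 over the 12 libraries. Cacna1g per Cacna1h ran from 1.17 to 1.94. These ratios were not tested.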
